A study of Mus musculus with 24 samples.

Results

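The genes described here are 58 DNA replication and repair genes, followed in the left lung lobe of newborn mice that carried floxed *Vangl2* or *Ror2* alleles with Sox9Cre. They were chosen by name as rows of the deposited tables, each of which lists 23420 genes, and all 58 were found and passed the filter on low values in each of the 4 tables. Bulk RNA of 24 lungs was sequenced, with 3 lungs in each of 8 groups. The mutants were *Sox9Cre/+; Vangl2f/f* and *Sox9Cre/+; Ror2f/f* mice at postnatal day 2 (P2) and postnatal day 5 (P5). Each mutant had its own control lungs at each age, titled Control(Vangl1/2) or Control(Ror2) and headed WT (wild type) among the deposited values. The labels do not say whether these controls carried Cre or floxed alleles. Cre from the Sox9 locus recombines in the distal lung epithelium, while the lobe was sequenced whole and therefore mixes epithelium with mesenchyme, vessels and blood. Values are normalized counts, which are the reads on a gene divided by a size factor of the lung, set within each table of 6 lungs. Log2 fold changes (mutant over control) were taken on log2(normalized count + 1) and are given ± the standard error from limma, with p-values adjusted (Benjamini-Hochberg) across the whole table.

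A cell copies its DNA in S phase. The origin recognition complex, with CDC6 and CDT1, loads the ring-shaped MCM helicase onto origins in G1. CDC45, the GINS complex and MCM10 then turn the ring into an active helicase, primase and DNA polymerases make the new strands on a PCNA clamp, and FEN1 and DNA ligase 1 join the fragments of the lagging strand. Ribonucleotide reductase, thymidylate synthase and thymidine kinase supply the nucleotides. E2F transcription factors switch on most of these genes at the G1/S border, so that their RNA marks cycling cells. The newborn mouse lung grows quickly while saccules are divided into alveoli, and epithelial, mesenchymal and endothelial cells all divide in this period.

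E2F proteins bind short GC-rich sites, and such letters were looked for in the promoters of the genes. RefSeq promoter windows of 300 bases (250 before and 50 after a start site, GRCm38.p6) were found for 47 of the 58 genes, and *2810417H13Rik* was matched there under its current symbol, *Pclaf*. The letters TTTCCCGC, TTTGGCGC, TTTCGCGC or TTTGCCGC, read on either strand, occurred in 19 of these 47 genes (40.4%) and in 704 of all 27025 genes with a window (2.61%). A CCAAT box (CCAAT, either strand) was present in 30 of the 47 (63.8%, against 41.1% of all genes). The CHR element of late cell-cycle genes (TTTGAA or TTCGAA, either strand) was present in 9 of the 47 (19.1%, against 21.7%). The 200 bases before the start site are shown for *Mcm6*, with 3 matches of which 2 overlap, and for *Gins3*, with 1 match. Both windows lie outside the annotated gene, and capitals mark the matches.
*Mcm6* (chr1:128359706-128359905, minus strand): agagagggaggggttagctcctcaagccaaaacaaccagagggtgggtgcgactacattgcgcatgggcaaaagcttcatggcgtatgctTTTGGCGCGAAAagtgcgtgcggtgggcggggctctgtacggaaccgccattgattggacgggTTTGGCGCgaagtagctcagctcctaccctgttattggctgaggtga
*Gins3* (chr8:95633359-95633558, plus strand): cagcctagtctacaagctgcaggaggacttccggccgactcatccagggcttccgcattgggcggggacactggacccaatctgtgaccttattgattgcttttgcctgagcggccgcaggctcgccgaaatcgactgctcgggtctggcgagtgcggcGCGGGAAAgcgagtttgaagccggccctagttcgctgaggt

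The stretches round the matches of 8 more genes are given on the strand of the gene, with up to 9 bases on each side. All but that of *Mcm5* overlap the annotated gene. The matches of *Clspn* and *E2f2* lie after the start site, and that of *2810417H13Rik* spans it. The 8 genes have different roles. Among them is *E2f2*, whose RNA did not follow that of the other genes at P2 (given with the regulators).
*Mcm5* (chr8:75109347-75109376, plus strand): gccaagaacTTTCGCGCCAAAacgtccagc
*Cdc6* (chr11:98908004-98908029, plus strand): cggtggagaGCGGGAAAtcgcctggg
*Uhrf1* (chr17:56304119-56304144, plus strand): cgagtcgggTTTCGCGCgcccaggcg
*Pola1* (chrX:93632277-93632302, minus strand): catcacaggGCGCCAAAtgcactccc
*2810417H13Rik* (chr9:65890309-65890334, plus strand): ttggagcgcGCGGGAAAgagacccat
*Orc1* (chr4:108579418-108579443, plus strand): cggttagtgGCGCGAAAagttttctc
*Clspn* (chr4:126556992-126557017, plus strand): cgcgtctggGCGCGAAAgctcgaact
*E2f2* (chr4:136172304-136172323, plus strand): ggcatatagTTTGGCGCtaa
Of the 19 genes with a match, 14 were called lower in the P2 *Vangl2* mutants described next, with a median log2 fold change of -1.20. Of the 28 genes with a window and no match, 21 were called, with a median of -1.22. In 11 of the 19 genes a match lay wholly before the start site. A match is a description of the letters only.

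Depth was similar among lungs, with between 16178031 and 21546673 reads on genes in the 23 lungs other than control 1 of the P5 *Ror2* table, which had 13823693. That lung holds almost no reads on chromosomes 5 to 9 and X. Of the genes there with more than 20 normalized counts in both other controls, 94.6% are listed at 0 in it, against 0.0221% of such genes elsewhere. Its values were set to missing on these chromosomes, which hold 26 of the 58 genes, so that those rest on 2 controls. *Vangl2* in its own P5 table had 369, 314 and 292 normalized counts (controls) against 169.5, 148 and 166 (mutants) (log2 fold change -1.0 ± 0.18, adjusted p = 0.0604). At P2 it had 249, 302 and 281 in the controls and 241, 224 and 173 in the mutants (log2 fold change -0.39 ± 0.18, adjusted p = 0.241), and the groups did not overlap at either age. *Ror2* overlapped between the groups of its own tables (log2 fold change -0.38 ± 0.16, adjusted p = 0.25 at P2 and log2 fold change -0.16 ± 0.20, adjusted p = 0.691 at P5), so these libraries are called *Ror2* mutants by their titles. Titles were followed for the *Vangl2* mutants at P5 and the *Ror2* mutants at P2, whose genotype entries name the other gene. *Sftpc*, the surfactant protein of alveolar type II cells, had between 91779 and 311502 normalized counts in the 24 lungs. *Xist*, expressed in females, had 22393, 23.7 and 115 normalized counts in the P2 *Vangl2* controls and 202, 20523.5 and 18947 in the mutants. In the P5 *Vangl2* table it was low in mutant 1 only (19.2). In the P5 *Ror2* table it was 11858.5 in control 2 and at most 129.8 in the mutants. In the P2 *Ror2* table it was 122, 22660 and 199 in the controls and 283, 24766 and 103 in the mutants. Only control 2 and mutant 2 were thus high there. In the other tables the sexes were mixed unevenly. Sex was not part of the fits, and its part in the levels was not tested.

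At P2 the replication genes fell in the *Vangl2* mutants. Of the 58 genes, 43 were called lower and 0 higher at an adjusted p under 0.05, where 2.09% of all 17448 genes tested were called lower and 1.5% higher. Log2 fold changes were below 0 for 57 of the 58, against 49.9% of all genes. The median log2 fold change of the 58 was -1.30, or 40.5% of the control level, against 0.00 for all genes. They ranged from -2.47 (*Rmi2*) to 0.07 (*E2f2*). In 57 of the 58 (*E2f2* being the exception) all mutant lungs were below all control lungs, as for 14.9% of all genes, and these 57 had an unadjusted p under 0.05, against 10.8%. By role, calls were made for 6 of 6 MCM helicase subunits, 5 of 6 genes of helicase activation, 2 of 4 of origin licensing and 6 of 8 of polymerase and primase. They were made for 2 of 3 genes of single-strand binding, 2 of 6 of the clamp and its loader and 2 of 2 of Okazaki fragment maturation. They were also made for 5 of 5 of nucleotide supply, 4 of 4 of chromatin copying, 1 of 2 of fork protection, 7 of 8 of DNA repair and 1 of 4 of G1/S control. In a whole lobe, fewer cycling cells and less of these RNAs per cell cannot be told apart.

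The calls rest on few lungs and on how the spread is pooled. The adjusted p-values of the called genes lie between 0.0248 and 0.0466. Without control 1, 2 or 3 the number of genes called among the 58 was 8, 0 and 0, and without mutant 1, 2 or 3 it was 43, 1 and 54. Over all genes these fits called 122, 1 and 1, and then 536, 33 and 2333. Of the 58, 0 were called when the spread was not allowed to follow the level of the gene (1 of all genes). With all 12 P2 lungs fitted together it was also 0 (45 of all genes). On recovered reads it was 42 with edgeR (641 of all genes) and 56 with DESeq2 (2001 of all genes). The median log2 fold change stayed between -1.5 and -1.06 when single lungs were left out.

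**Figure D1:**
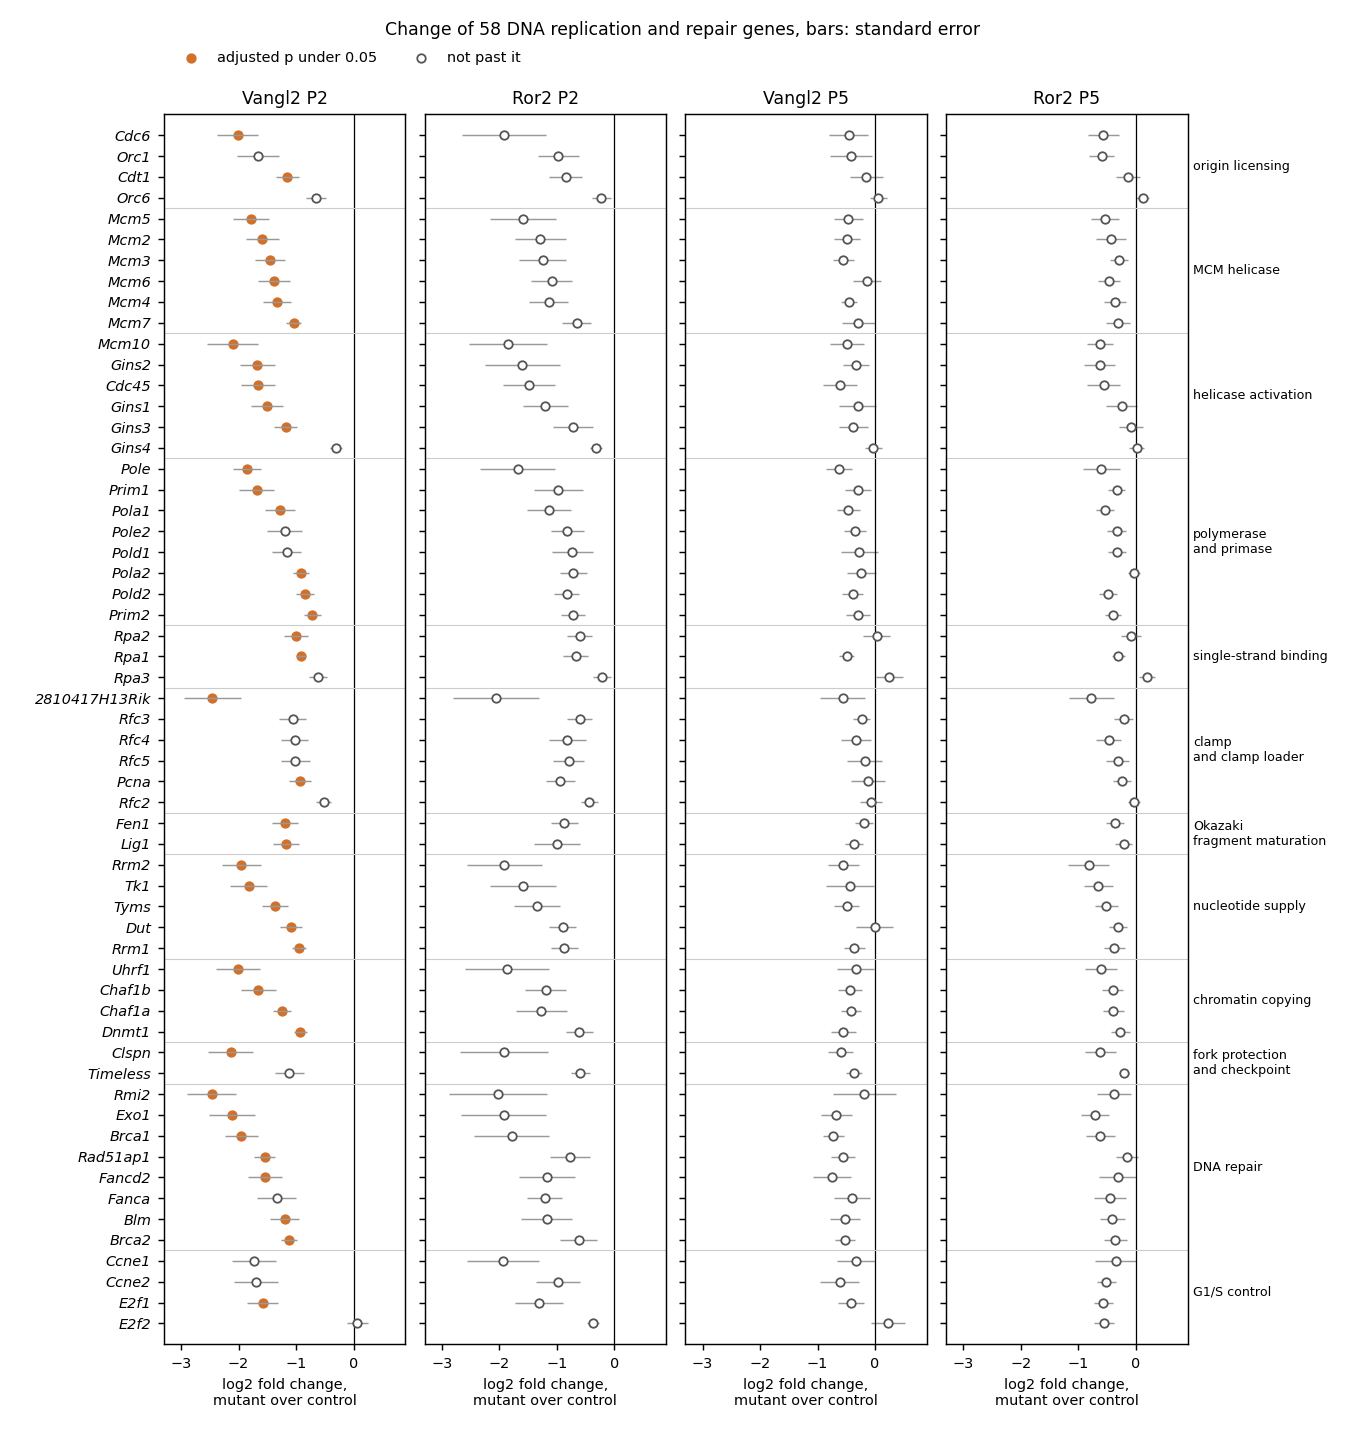
Log2 fold change of the 58 genes, mutant over control, in the 4 comparisons, grouped by role, with bars for the standard error from limma and orange points for genes at an adjusted p under 0.05. At P2 the points lie left of 0 in both mutants except for *E2f2* in the *Vangl2* mutants, and the 43 orange points are all in the P2 *Vangl2* panel.

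In the *Ror2* mutants at P2 the same genes were lower on average, but no gene of the genome was called. Of 17541 genes tested with limma, 0 passed an adjusted p of 0.05 (0%), and edgeR called 0 too, while DESeq2 called 803 genes, 15 of the 58 among them. All 58 genes had a log2 fold change below 0, as did 50.6% of all genes, with a median of -0.99 or 50.3% of the control level. They ranged from -2.06 (*2810417H13Rik*) to -0.21 (*Rpa3*). At an unadjusted p under 0.05, 51 of the 58 were lower, against 9.71% of all genes. In 25 of the 58 every mutant lay below every control (12.2% of all genes). Without mutant 2 limma called 859 genes and 24 of the 58, and without any other lung it called 0 of the 58. The unadjusted count was 19, 15 and 55 without control 1, 2 and 3 and 23, 55 and 32 without mutant 1, 2 and 3. It was not taken over all genes in these fits. These counts therefore do not set the 58 apart from the whole table.

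The lungs of a group differed widely, and they differed for nearly all of the genes together. In the P2 *Vangl2* table the summed share of the 58 genes was 2267, 2863 and 2714 normalized counts per 1000000 in controls 1 to 3 and 821, 1122 and 1355 in mutants 1 to 3. Mutant 1 was the lowest of the 6 lungs for 51 genes and control 2 the highest for 44. In the P2 *Ror2* table the share was 2416, 2896 and 1728 in the controls and 1119, 1783 and 739 in the mutants. Mutant 3 was the lowest lung for 56 genes and control 2 the highest for 55. Mutant 2 and control 3 of this table were alike in their share, so that the groups overlap there and do not overlap in the *Vangl2* table.

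**Figure D2:**
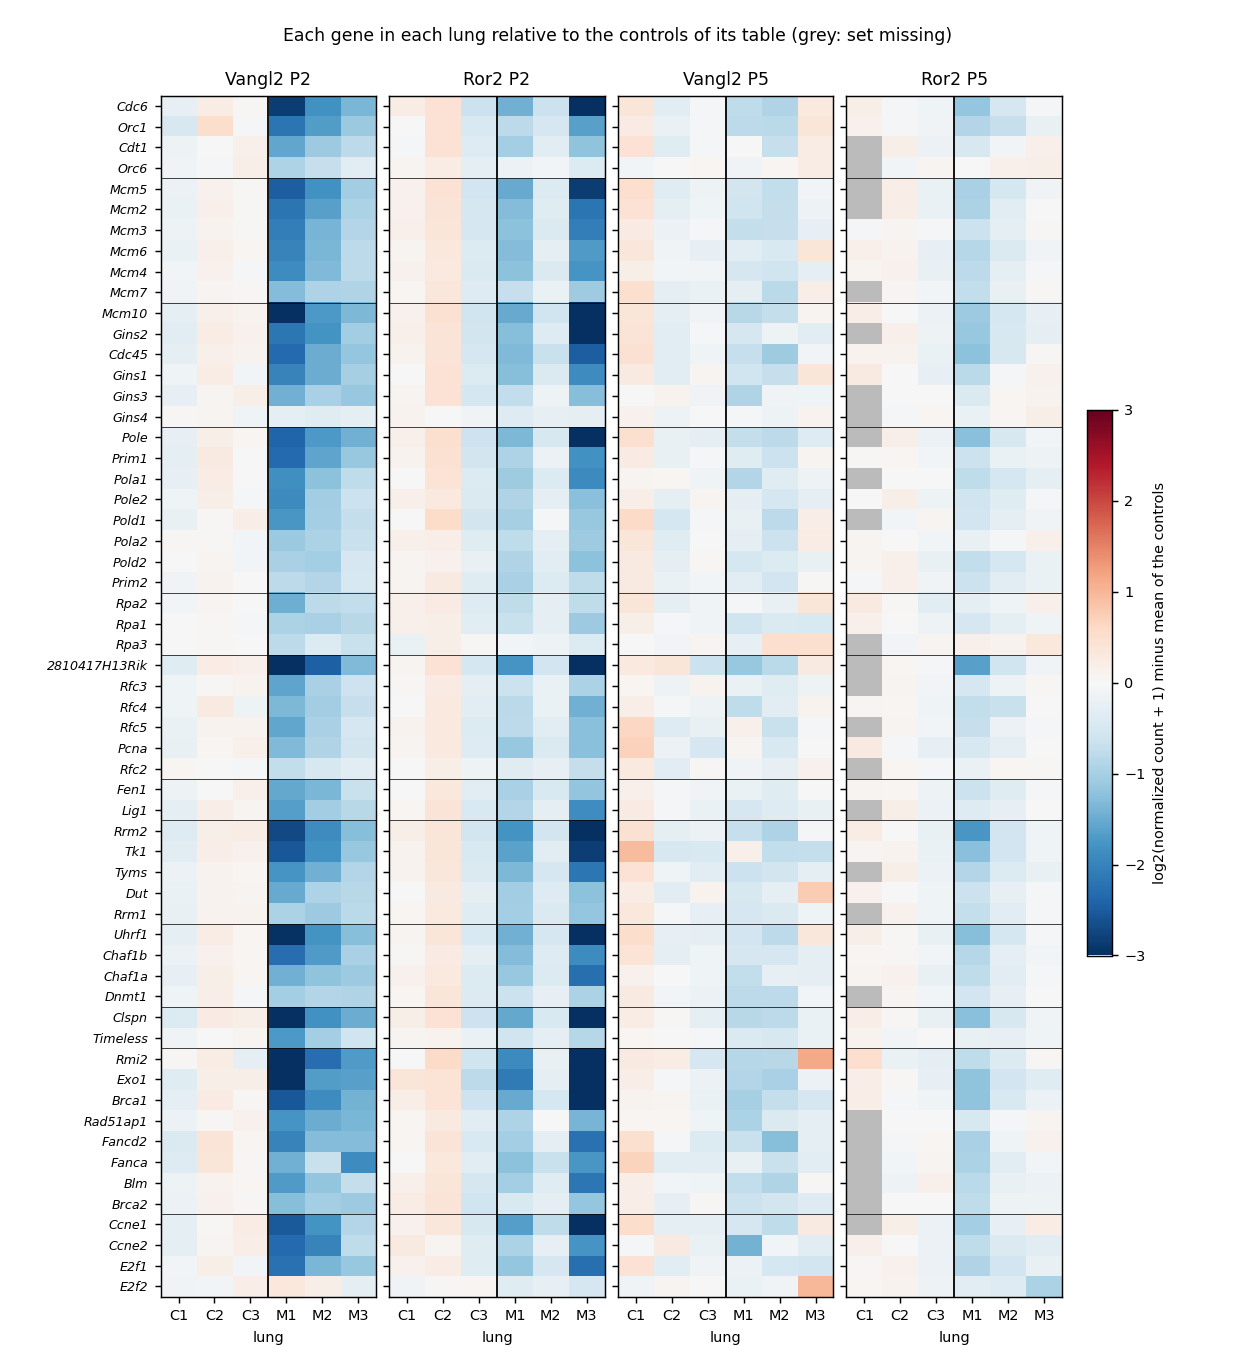
Each of the 58 genes (rows) in each lung (columns; C, control; M, mutant) as log2(normalized count + 1) minus the mean of the controls of its table, with values set missing in 1 lung in grey and the colour scale ending at -3 and 3. Mutant 1 of the P2 *Vangl2* table and mutant 3 of the P2 *Ror2* table are the darkest columns.

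**Figure D3:**
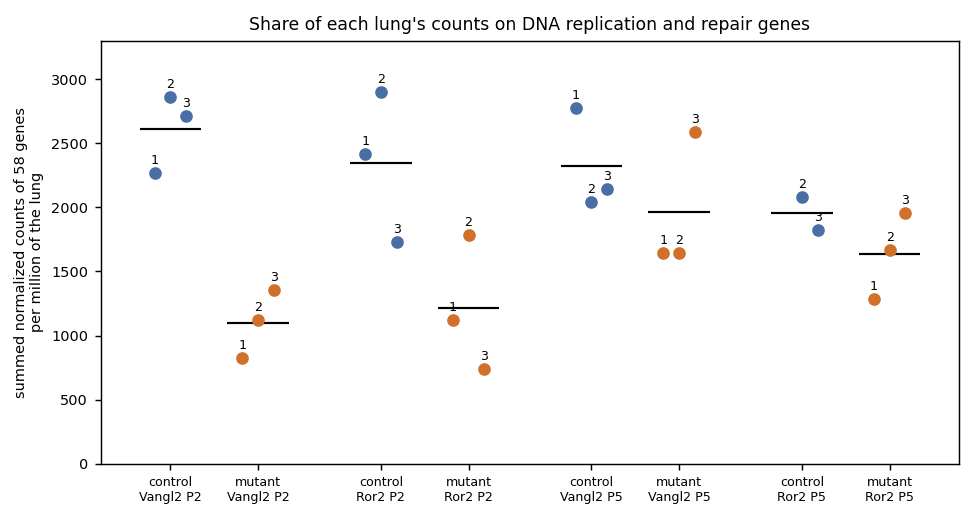
Summed normalized counts of the 58 genes per 1000000 normalized counts of the lung, for each control (blue) and mutant (orange) lung, numbered by replicate, with a line at the mean. Control 1 of the P5 *Ror2* table is left out because 26 of the genes are missing in it. The P2 *Vangl2* groups are apart, and the other 3 pairs of groups overlap.

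Among the genes of origin licensing, *Cdc6*, the loader of the MCM ring, had 305, 422 and 374 normalized counts in the controls and 49.6, 102 and 139.6 in the mutants (log2 fold change -2.02 ± 0.36, adjusted p = 0.0326), and *Cdt1*, its partner in loading, had 554, 619 and 679 normalized counts in the controls and 208, 288 and 354 in the mutants (log2 fold change -1.15 ± 0.20, adjusted p = 0.0326). The controls and mutants of both were well apart in the *Vangl2* table. *Orc1*, the large subunit of the origin recognition complex that is made anew in each cycle, had 81.1, 162 and 109 normalized counts in the controls and 23.8, 34.4 and 51.9 in the mutants (log2 fold change -1.66 ± 0.37, adjusted p = 0.0529), and *Orc6* had a log2 fold change of -0.65 ± 0.18 (adjusted p = 0.0853). Neither passed the test. In the *Ror2* table *Cdc6* had 342, 397 and 188 normalized counts in the controls and 108, 188 and 22.1 in the mutants (log2 fold change -1.92 ± 0.73, adjusted p = 0.234), with mutant 2 just below control 3, and *Orc6* had the second smallest difference of the 58 (-0.23 ± 0.16).

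The 6 subunits of the MCM ring fell together in the P2 *Vangl2* mutants, to between 29.1% (*Mcm5*) and 48.6% (*Mcm7*) of the controls. *Mcm2* had 1578, 2028 and 1876 normalized counts in the controls and 399, 590.1 and 943 in the mutants (log2 fold change -1.58 ± 0.28, adjusted p = 0.0326). *Mcm3* had 1568, 1876 and 1761 normalized counts in the controls and 408, 657 and 938 in the mutants (log2 fold change -1.45 ± 0.27, adjusted p = 0.0337). *Mcm4* had 2137, 2510.4 and 2203 normalized counts in the controls and 613, 914 and 1319 in the mutants (log2 fold change -1.33 ± 0.25, adjusted p = 0.0338). In each of these 3 the mutant lungs differ from one another by more than the controls do, with mutant 1 lowest. *Mcm5* had 1324, 1634 and 1543 normalized counts in the controls and 267, 424 and 724 in the mutants (log2 fold change -1.78 ± 0.32, adjusted p = 0.0326). *Mcm6*, whose promoter carries 3 of the E2F letters shown above, had 2117, 2718 and 2548 normalized counts in the controls and 607, 953 and 1431 in the mutants (log2 fold change -1.38 ± 0.28, adjusted p = 0.041). *Mcm7* had 1484, 1686 and 1643 normalized counts in the controls and 651, 839.9 and 862 in the mutants (log2 fold change -1.04 ± 0.13, adjusted p = 0.0258), and its mutants were closer to each other than those of the other subunits. In the P2 *Ror2* table *Mcm5* had 1332, 1659.9 and 819 normalized counts in the controls and 429, 912 and 169 in the mutants (log2 fold change -1.59 ± 0.57, adjusted p = 0.222) and *Mcm2* had 1846, 2216 and 1197 normalized counts in the controls and 693, 1312 and 369 in the mutants (log2 fold change -1.29 ± 0.44, adjusted p = 0.215). In both, mutant 2 lay above control 3.

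In helicase activation, CDC45 and the 4 GINS proteins bind the MCM ring to form the moving helicase. *Cdc45* had 375, 502 and 483 normalized counts in the controls and 87.9, 160.3 and 201 in the mutants (log2 fold change -1.66 ± 0.30, adjusted p = 0.0326). *Mcm10*, which acts at the same step, had 280.2, 372 and 362 normalized counts in the controls and 35.1, 101 and 130.4 in the mutants (log2 fold change -2.10 ± 0.44, adjusted p = 0.0466). Of the GINS genes, 3 were called lower and *Gins4* was not. *Gins1* had 200.1, 256 and 207 normalized counts in the controls and 53.7, 77.7 and 109 in the mutants (log2 fold change -1.5 ± 0.28, adjusted p = 0.0335). *Gins2* had 237, 351 and 329 normalized counts in the controls and 66.2, 85.6 and 145 in the mutants (log2 fold change -1.68 ± 0.30, adjusted p = 0.0329). *Gins3* had 192, 242 and 256 normalized counts in the controls and 82.7, 116 and 104 in the mutants (log2 fold change -1.18 ± 0.21, adjusted p = 0.0326). *Gins4* differed least of the 4, with 683, 707 and 607 normalized counts in the controls and 546, 517 and 548 in the mutants (log2 fold change -0.31 ± 0.11, adjusted p = 0.158). The same held in the *Ror2* table, where *Gins4* had 585, 547 and 501 normalized counts in the controls and 414, 456 and 441 in the mutants (log2 fold change -0.31 ± 0.10, adjusted p = 0.208), while *Cdc45* had 410.5, 503 and 270.1 normalized counts in the controls and 152, 242 and 68.3 in the mutants (log2 fold change -1.48 ± 0.45, adjusted p = 0.206).

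Among the polymerases, *Pole*, the catalytic subunit of the leading-strand polymerase, had 694, 932 and 854 normalized counts in the controls and 155, 249 and 299 in the mutants (log2 fold change -1.86 ± 0.24, adjusted p = 0.0265). *Pola1*, the catalytic subunit of the polymerase that starts each fragment, had 553, 771 and 668 normalized counts in the controls and 183, 281 and 387 in the mutants (log2 fold change -1.28 ± 0.27, adjusted p = 0.0451), and *Pola2*, its partner, had 789.9, 793 and 731 normalized counts in the controls and 357, 398 and 486 in the mutants (log2 fold change -0.91 ± 0.14, adjusted p = 0.0295). In all 3 the groups were apart. *Prim1*, the small primase subunit, had 420.2, 620.3 and 523 normalized counts in the controls and 101, 171 and 234 in the mutants (log2 fold change -1.68 ± 0.30, adjusted p = 0.0326), and *Prim2*, the large one, had 483, 561 and 509.5 normalized counts in the controls and 302, 279 and 369.8 in the mutants (log2 fold change -0.71 ± 0.15, adjusted p = 0.0419). *Pold2*, the second subunit of the lagging-strand polymerase, had 752, 797 and 703 normalized counts in the controls and 379, 367 and 526 in the mutants (log2 fold change -0.84 ± 0.16, adjusted p = 0.0348). *Pold1*, its catalytic subunit, and *Pole2* missed the threshold (adjusted p = 0.0532 and 0.0736) with log2 fold changes of -1.16 and -1.20. The trimer RPA coats single strands. *Rpa1* had 2531, 2590.1 and 2464 normalized counts in the controls and 1306, 1287 and 1419.95 in the mutants (log2 fold change -0.92 ± 0.09, adjusted p = 0.0248), with the lowest unadjusted p of the 58, and *Rpa2* had 537, 604 and 579 normalized counts in the controls and 207, 332 and 341 in the mutants (log2 fold change -1.0 ± 0.20, adjusted p = 0.0413). *Rpa3* missed the threshold (log2 fold change -0.62 ± 0.15, adjusted p = 0.0635). *Pole* in the *Ror2* table had 700.3, 870.4 and 406 normalized counts in the controls and 246, 453 and 66.2 in the mutants (log2 fold change -1.68 ± 0.66, adjusted p = 0.239), and *Rpa3* differed least of the 58.

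At the clamp, *2810417H13Rik* encodes the small PCNA-binding protein PCLAF and had 1 of the 2 lowest log2 fold changes of the 58 in both P2 tables. It had 1585, 2354 and 2240.2 normalized counts in the controls and 166, 369 and 816 in the mutants (log2 fold change -2.46 ± 0.50, adjusted p = 0.041) in the *Vangl2* table and 770.4, 984 and 504 normalized counts in the controls and 211, 489 and 50.4 in the mutants (log2 fold change -2.06 ± 0.74, adjusted p = 0.222) in the *Ror2* table. *Pcna*, the clamp itself, had a smaller log2 fold change, with 2134, 2569 and 2769 normalized counts in the controls and 990.2, 1315 and 1678 in the mutants (log2 fold change -0.93 ± 0.19, adjusted p = 0.0437) in the *Vangl2* table and 2614, 3054 and 1907 normalized counts in the controls and 1133, 1838 and 1044 in the mutants (log2 fold change -0.94 ± 0.25, adjusted p = 0.203) in the *Ror2* table. The 4 genes of the clamp loader among the 58, *Rfc2* to *Rfc5*, missed the threshold in the *Vangl2* table, with log2 fold changes between -1.06 (*Rfc3*, adjusted p = 0.0538) and -0.52 (*Rfc2*, adjusted p = 0.0616). Every mutant lay below every control in all 4.

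*Fen1*, the nuclease that trims the flaps of lagging-strand fragments, had 684, 758 and 837 normalized counts in the controls and 260.5, 294 and 477 in the mutants (log2 fold change -1.19 ± 0.22, adjusted p = 0.0348). *Lig1*, the ligase, had 1185, 1668 and 1529.6 normalized counts in the controls and 459.95, 706 and 807 in the mutants (log2 fold change -1.17 ± 0.22, adjusted p = 0.0348). Both fell by slightly less than the median of the 58. All 5 genes of nucleotide supply were called lower. *Rrm2*, the S-phase subunit of ribonucleotide reductase, had 1278, 1883 and 1942 normalized counts in the controls and 255, 452 and 689.6 in the mutants (log2 fold change -1.96 ± 0.34, adjusted p = 0.0326), and *Rrm1*, its more stable partner, had 2489.9, 3118 and 3105 normalized counts in the controls and 1494, 1357 and 1645 in the mutants (log2 fold change -0.95 ± 0.12, adjusted p = 0.0265). The difference was larger for *Rrm2* than for *Rrm1* in both P2 tables. *Tk1*, which salvages thymidine, had 708, 1029 and 971 normalized counts in the controls and 153, 253 and 406 in the mutants (log2 fold change -1.83 ± 0.33, adjusted p = 0.0329). *Tyms*, which makes thymidylate, had 783, 955 and 923 normalized counts in the controls and 258, 323 and 479.8 in the mutants (log2 fold change -1.37 ± 0.22, adjusted p = 0.0312). *Dut*, which removes dUTP, had 631, 787 and 771 normalized counts in the controls and 254, 385 and 406 in the mutants (log2 fold change -1.09 ± 0.20, adjusted p = 0.0329). In the *Ror2* table *Rrm2* had 1566, 1801 and 951 normalized counts in the controls and 403, 951 and 130.3 in the mutants (log2 fold change -1.91 ± 0.65, adjusted p = 0.215) and *Rrm1* had a log2 fold change of -0.87 ± 0.23.

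Of the genes that copy chromatin with the DNA, *Uhrf1*, which brings the maintenance methyltransferase to newly copied DNA, had 1083, 1520.3 and 1351 normalized counts in the controls and 167, 374 and 539 in the mutants (log2 fold change -2.01 ± 0.38, adjusted p = 0.0351). *Dnmt1*, that methyltransferase, had 2531, 3191 and 2670.3 normalized counts in the controls and 1375, 1522 and 1491 in the mutants (log2 fold change -0.93 ± 0.11, adjusted p = 0.0258). *Dnmt1* had a smaller log2 fold change than *Uhrf1*, and its 3 mutants were close to each other. *Chaf1a* and *Chaf1b* encode subunits of the factor that places histones behind the fork. *Chaf1a* had 586, 779 and 723 normalized counts in the controls and 255, 299.95 and 324 in the mutants (log2 fold change -1.24 ± 0.15, adjusted p = 0.0258). *Chaf1b* had 555, 688 and 657 normalized counts in the controls and 128, 193 and 321 in the mutants (log2 fold change -1.66 ± 0.30, adjusted p = 0.0333). *Clspn*, the adaptor that carries the checkpoint signal at stalled forks, had 559, 877 and 832 normalized counts in the controls and 86.8, 208 and 262 in the mutants (log2 fold change -2.14 ± 0.39, adjusted p = 0.0333), and *Timeless*, a part of the fork protection complex, missed the threshold (log2 fold change -1.12 ± 0.25, adjusted p = 0.0557). *Uhrf1* in the *Ror2* table had 1088, 1319.8 and 753 normalized counts in the controls and 379, 727 and 79.8 in the mutants (log2 fold change -1.87 ± 0.73, adjusted p = 0.237), and mutant 3 was far below the other mutants. *Clspn* had 605, 728 and 347 normalized counts in the controls and 183, 392 and 38.9 in the mutants (log2 fold change -1.91 ± 0.77, adjusted p = 0.245), with the same lung lowest.

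Among the repair genes, *Brca1*, which acts in repair by homologous recombination, had 449.7, 657 and 565 normalized counts in the controls and 93.02, 148 and 206 in the mutants (log2 fold change -1.95 ± 0.29, adjusted p = 0.0289). *Brca2*, which loads the recombinase, had 479, 589 and 556 normalized counts in the controls and 223, 267 and 255 in the mutants (log2 fold change -1.12 ± 0.14, adjusted p = 0.0258), and *Rad51ap1*, a stimulator of it, had 275, 318 and 339 normalized counts in the controls and 89.9, 110.1 and 118 in the mutants (log2 fold change -1.54 ± 0.18, adjusted p = 0.0248). The mutants of the last 2 were close to each other. *Exo1*, the end-resecting nuclease, had 195, 284 and 282 normalized counts in the controls and 28.9, 77.7 and 80.5 in the mutants (log2 fold change -2.12 ± 0.40, adjusted p = 0.0345). *Blm*, a helicase that resolves joined molecules, had 384, 461 and 442 normalized counts in the controls and 130.2, 189 and 261 in the mutants (log2 fold change -1.20 ± 0.25, adjusted p = 0.0427), and *Rmi2*, a small subunit of the same complex, had 122, 139 and 98.7 normalized counts in the controls and 10.3, 23.6 and 35.7 in the mutants (log2 fold change -2.47 ± 0.43, adjusted p = 0.0326), the lowest counts of the 8 repair genes and the lowest log2 fold change of the 58. *Fancd2*, of the crosslink repair pathway, had 164, 294 and 233 normalized counts in the controls and 54.8, 90.5 and 90.7 in the mutants (log2 fold change -1.54 ± 0.29, adjusted p = 0.0358). *Fanca*, of the same pathway, missed the threshold (log2 fold change -1.33 ± 0.34, adjusted p = 0.0741). *Brca1* in the *Ror2* table had 485, 562 and 275 normalized counts in the controls and 147, 290.1 and 42.02 in the mutants (log2 fold change -1.78 ± 0.65, adjusted p = 0.225), and mutant 2 lay above control 3.

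In G1/S control, *E2f1*, an activator of S-phase genes, had 772, 922 and 778 normalized counts in the controls and 173, 317 and 375 in the mutants (log2 fold change -1.58 ± 0.27, adjusted p = 0.0326) in the *Vangl2* table and 790.01, 835 and 563 normalized counts in the controls and 320.1, 507 and 149 in the mutants (log2 fold change -1.31 ± 0.41, adjusted p = 0.207) in the *Ror2* table. The cyclins E, partners of the kinase CDK2 at the start of S phase, missed the threshold in the *Vangl2* table, with 259, 324 and 369 normalized counts in the controls and 53.7, 90.5 and 171 in the mutants (log2 fold change -1.73 ± 0.39, adjusted p = 0.0541) for *Ccne1* and 214, 271 and 296 normalized counts in the controls and 50.6, 63.9 and 152 in the mutants (log2 fold change -1.69 ± 0.39, adjusted p = 0.0563) for *Ccne2*. All mutants lay below all controls in these 3 genes of the *Vangl2* table. *E2f2*, another activator, did not share the pattern. It had 814, 827 and 1013 normalized counts in the controls and 1104, 997 and 713 in the mutants (log2 fold change 0.07 ± 0.18, adjusted p = 0.852) in the *Vangl2* table, where the groups overlap, and its log2 fold change was -0.062 without mutant 1. In the *Ror2* table it had 549, 608 and 619 normalized counts in the controls and 461, 501 and 416 in the mutants (log2 fold change -0.37 ± 0.11, adjusted p = 0.203), a small difference with no overlap. The difference between both mutants in the change of *E2f2* was -0.43 on the log2 scale (95% interval -0.91 to 0.04, limma adjusted p = 0.946).

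**Figure D4:**
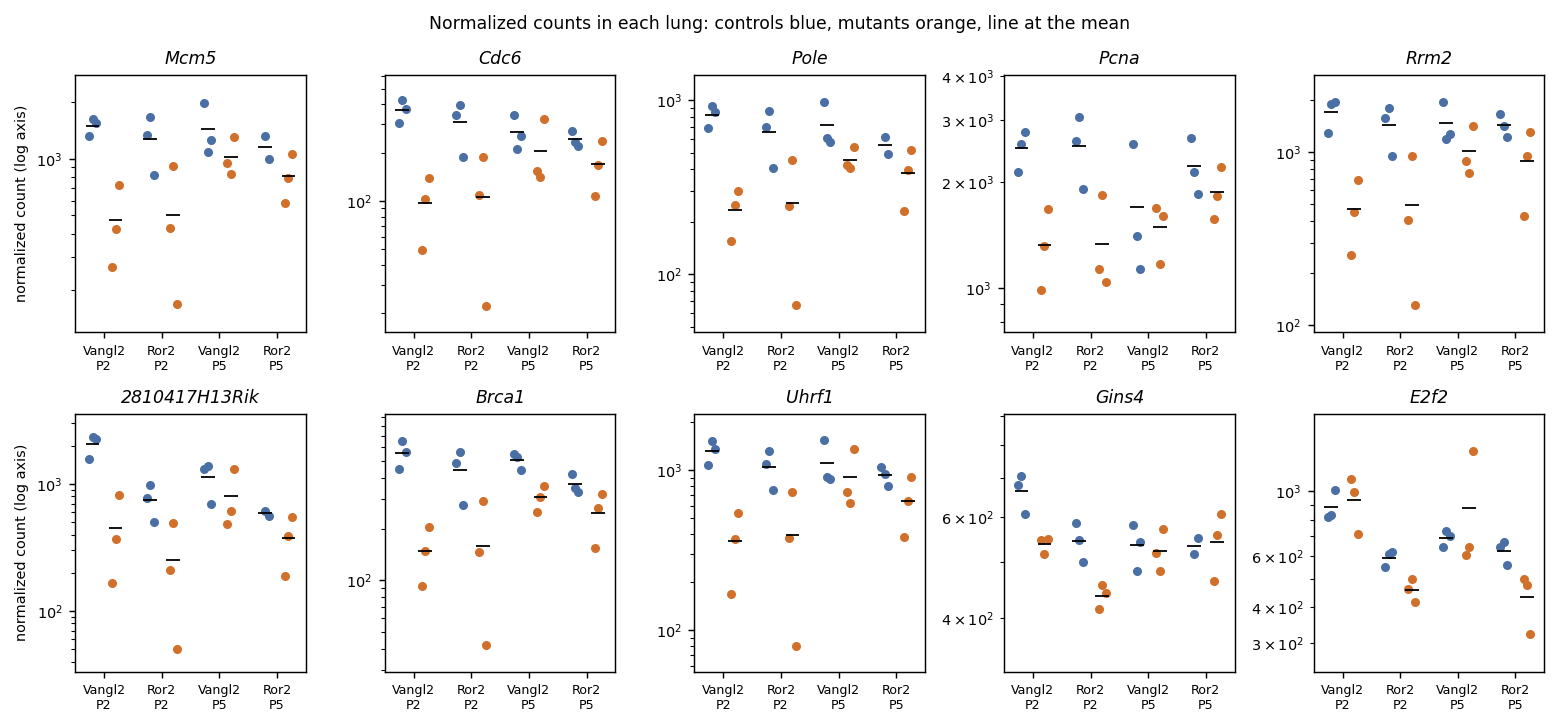
Normalized counts of 10 of the genes in each lung on a log axis, controls in blue and mutants in orange, with a line at the mean, for the 4 comparisons. At P2 the *Vangl2* mutants lie below their controls in every gene drawn except *E2f2*, and 1 *Ror2* mutant lies far below the rest in *Mcm5*, *Cdc6*, *Pole*, *Rrm2*, *2810417H13Rik*, *Brca1* and *Uhrf1*. *E2f2* reaches 1378 normalized counts in mutant 3 of the P5 *Vangl2* table.

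At P5 the differences were smaller and no gene of the 58 was called in either mutant. In the *Vangl2* table limma called 5 of 17410 genes lower (0.0287%) and 93 higher (0.534%). The median log2 fold change of the 58 was -0.38, or 76.6% of the control level, and 54 were below 0 (49.7% of all genes). At an unadjusted p under 0.05, 15 were lower (8.35% of all genes), and in 11 every mutant lay below every control (12.5%). The share of the 58 genes was 2775, 2045 and 2142 per 1000000 in the controls and 1645, 1645 and 2591 in the mutants. Mutants 1 and 2 were thus below the controls and mutant 3 within them. Same-numbered lungs of this table deviated together, and 2 of the 58 were called in a fit blocked by replicate number, where 3.48% of all genes were called lower. These were *Brca1*, with 546, 530.1 and 442 normalized counts in the controls and 253, 309 and 357 in the mutants (log2 fold change -0.73, adjusted p = 0.048 with the block and 0.109 without), and *Rpa1*, with 2654, 2288 and 2186 and 1559, 1766 and 1724 (log2 fold change -0.49, adjusted p = 0.0478 and 0.119). On recovered reads DESeq2 called the same 2 of the 58, among 1273 genes of which 430 were lower, and edgeR called 0 of the 58.

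Mutant 3 of the P5 *Vangl2* table lay apart from the other mutants in several genes. *Mcm5* had 1984, 1083 and 1258 normalized counts in the controls and 947, 830.5 and 1306 in the mutants (log2 fold change -0.46 ± 0.25, adjusted p = 0.37), and *Rrm2* had 1953, 1186 and 1269 normalized counts in the controls and 887, 753 and 1403 in the mutants (log2 fold change -0.55 ± 0.27, adjusted p = 0.319). In both, mutant 3 lay above 2 of the controls. *2810417H13Rik* had 1309, 1377 and 691 normalized counts in the controls and 486, 609.97 and 1302 in the mutants (log2 fold change -0.56 ± 0.39, adjusted p = 0.486), and *Uhrf1* had 1552, 911 and 884 normalized counts in the controls and 726, 628 and 1358 in the mutants (log2 fold change -0.34 ± 0.32, adjusted p = 0.623). *Rmi2* had 110.4, 107 and 63.5 normalized counts in the controls and 49.5, 50.4 and 202 in the mutants (log2 fold change -0.19 ± 0.55, adjusted p = 0.89) and *E2f2* had 642, 734 and 701 normalized counts in the controls and 605, 642 and 1378 in the mutants (log2 fold change 0.23 ± 0.30, adjusted p = 0.725), and in each mutant 3 was the highest of the 6 lungs. *Rpa3* had the largest difference above 0 (log2 fold change 0.25 ± 0.23, adjusted p = 0.614) and *Fancd2* the largest below 0 (log2 fold change -0.75 ± 0.33, adjusted p = 0.266). Without mutant 3 the median log2 fold change of the 58 was -0.51, 0 were called and 31 had an unadjusted p under 0.05. That count was 3 without control 1, 6 without mutant 1 and 7 without mutant 2. It was not taken over all genes in these fits, so it does not set the 58 apart from the whole table.

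In the P5 *Ror2* table limma called 16 of 17177 genes lower (0.0931%) and 15 higher (0.0873%). The 58 genes had a median log2 fold change of -0.37, or 77.2% of the control level, and 55 were below 0 (49.4% of all genes). At an unadjusted p under 0.05, 16 were lower (8.4% of all genes), and in 18 every mutant lay below every control (14.4%). Over the 32 genes measured in all 6 lungs, the share was 1893, 1737 and 1493 per 1000000 in the controls and 1049, 1356 and 1612 in the mutants. Mutant 1 was the lowest lung for 29 of these 32 genes, and mutant 3 lay among the controls. *Rrm2* had 1661, 1419.8 and 1224 normalized counts in the controls and 426, 950.4 and 1299.7 in the mutants (log2 fold change -0.82 ± 0.36, adjusted p = 0.275), the lowest log2 fold change of the 58. *Cdc45* had 392, 387 and 314 normalized counts in the controls and 154, 259 and 372 in the mutants (log2 fold change -0.56 ± 0.29, adjusted p = 0.337) and *Brca1* had 419, 346 and 329 normalized counts in the controls and 155, 265 and 319.7 in the mutants (log2 fold change -0.62 ± 0.25, adjusted p = 0.248). *E2f1* had 664, 707 and 574 normalized counts in the controls and 347, 430.3 and 555 in the mutants (log2 fold change -0.57 ± 0.17, adjusted p = 0.17) and *E2f2* had 645, 669.7 and 558 normalized counts in the controls and 501, 477 and 322 in the mutants (log2 fold change -0.55 ± 0.17, adjusted p = 0.175). For these 2 regulators and *Brca1* the groups did not overlap. *Mcm5*, which lies on a chromosome missing in control 1, had 1321 and 996 normalized counts in the controls and 580.4, 796 and 1066 in the mutants (log2 fold change -0.54 ± 0.25, adjusted p = 0.302). *Rpa3* was the 1 gene whose mutants all lay above the controls (15.6% of all genes), with 228 and 259 normalized counts in the controls and 269.6, 263 and 304 in the mutants (log2 fold change 0.20 ± 0.14, adjusted p = 0.468). Without mutant 3, 3 of the 58 and 901 of all genes were called, which is about the same share of each. In that fit 39 of the 58 had an unadjusted p under 0.05. That unadjusted count was 6 without control 1, 3 without control 2 and 8 without mutant 2. It was not taken over all genes in any of these fits without 1 lung.

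The change was compared between ages and between mutants in fits over 12 lungs. In the *Vangl2* mutants the log2 fold change was higher at P5 than at P2 for all 58 genes, by a median of 0.92 (0.02 over all genes). At an unadjusted p under 0.05, 42 of the 58 lay above 0 in this difference, against 4.38% of all genes, but 0 of 17068 genes passed the adjustment and the lowest adjusted p of the 58 was 0.577. *Rad51ap1* had the lowest unadjusted p, with a difference of 0.99 (95% interval 0.39 to 1.59), followed by *Fen1* (0.99, 95% interval 0.38 to 1.61). In the *Ror2* mutants the difference was above 0 for 57 genes, with a median of 0.68, and 1 gene, *Pola2*, had an unadjusted p under 0.05 (0.68, 95% interval 0.08 to 1.27), where 5.08% of all genes had one above 0. This count depended on the fit, with 6 of the 58 after lungs were rescaled to the same total and 39 with the replicate block, while the genes of either direction in the whole table numbered 1613, 1645 and 1750 of 16990 in these 3 fits. The numbers were not found to pair the lungs of the *Ror2* tables, and 0 genes passed the adjustment in each of these fits. Between the mutants at P2, the *Ror2* change minus the *Vangl2* change had a median of 0.22 over the 58, and 0 of them had an unadjusted p under 0.05 (4.6% of all genes in either direction). With the replicate block 6 of the 58 had one, where 996 of all genes did, against 788 without the block. The interval for *Rad51ap1*, the largest such difference, ran from -0.14 to 1.69 round 0.77. At P5 the median of this difference was -0.02, with 2 of 16886 genes called (0.0118%) and 0 of the 58 at an unadjusted p under 0.05 (4.73% of all genes in either direction), and with the replicate block it was 0.07. An absence of calls here does not show that both mutants changed alike.

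Genes with a low log2 fold change in one comparison tended to have a low one in the others. Across the 58 genes, Pearson's r between the log2 fold changes of the *Vangl2* and *Ror2* mutants, which have separate controls, was 0.905 at P2 (Spearman's rho 0.903) and 0.591 at P5 (rho 0.539). Between ages it was 0.643 in the *Vangl2* mutants and 0.765 in the *Ror2* mutants. The genes of a table come from the same 6 lungs and are no replicates, so no p is given. *2810417H13Rik*, *Rmi2*, *Exo1*, *Clspn*, *Mcm10*, *Cdc6*, *Uhrf1*, *Rrm2* and *Brca1* were low in both P2 tables, with log2 fold changes of at most -1.95 in the *Vangl2* and at most -1.78 in the *Ror2* mutants. *Gins4*, *E2f2*, *Rfc2*, *Rpa3* and *Orc6* had the 5 smallest differences in both.

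Other genes of the same processes were lower as well in the P2 *Vangl2* mutants. Of 72 further replication and repair genes, 26 were called lower and 0 higher, with a median log2 fold change of -0.70. *Chtf18*, of an alternative clamp loader, had 205, 251 and 241 normalized counts in the controls and 54.8, 82.6 and 86.6 in the mutants (log2 fold change -1.65 ± 0.23, adjusted p = 0.0286). *Mms22l*, which helps recombination at broken forks, had 360.2, 432 and 397 normalized counts in the controls and 109, 161 and 174 in the mutants (log2 fold change -1.44 ± 0.21, adjusted p = 0.0289). *Eme1*, of a structure-cutting nuclease, had 120.1, 147 and 139 normalized counts in the controls and 29.97, 41.3 and 47.9 in the mutants (log2 fold change -1.76 ± 0.25, adjusted p = 0.0289). Of 30 further G1/S regulators, 9 were called lower and 1 higher, with a median of -0.40. *Rbl1*, the repressor p107, had 1063, 1372 and 1220.2 normalized counts in the controls and 409, 547 and 659 in the mutants (log2 fold change -1.20 ± 0.18, adjusted p = 0.0301), *Tfdp1*, the partner of E2F proteins, had 1510.3, 1762 and 1799.7 normalized counts in the controls and 1037, 1094 and 1116 in the mutants (log2 fold change -0.64 ± 0.10, adjusted p = 0.0312), and *Ccna2*, the cyclin of S and G2 phase, had 1548, 2528 and 2498 normalized counts in the controls and 334, 555 and 785 in the mutants (log2 fold change -2.02 ± 0.32, adjusted p = 0.0312). The 1 that rose was *Cdkn1c*, the inhibitor p57, with 2847, 2818 and 2826 normalized counts in the controls and 4969.6, 3969 and 3731 in the mutants (log2 fold change 0.57 ± 0.12, adjusted p = 0.0457), which was named after its value was seen.

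All 24 of the mitosis list were called lower in the P2 *Vangl2* mutants, with a median log2 fold change of -1.75. *Plk1*, a mitotic kinase, had 734, 1096 and 838 normalized counts in the controls and 277, 312 and 306 in the mutants (log2 fold change -1.56 ± 0.16, adjusted p = 0.0248), and *Kif20a*, a motor of cell division, had 752, 1236 and 1032 normalized counts in the controls and 263, 340.3 and 384 in the mutants (log2 fold change -1.60 ± 0.21, adjusted p = 0.0265). *Tpx2*, a spindle assembly factor, had 1776, 2523 and 2257 normalized counts in the controls and 366, 592 and 804 in the mutants (log2 fold change -1.95 ± 0.27, adjusted p = 0.0286). Without a block, calls were made for 0 of these 24, 72 and 30 genes in the other 3 comparisons. With the replicate block, which pairs the lungs of the P5 *Vangl2* table, 5, 1 and 4 of them were called lower there, against 3.48% of all genes. The medians of the 24 mitotic genes were -1.78 in the P2 *Ror2*, -0.71 in the P5 *Vangl2* and -0.78 in the P5 *Ror2* mutants. For the 72 further replication and repair genes they were -0.56, -0.20 and -0.14, and for the 30 regulators -0.30, -0.20 and -0.26.

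Markers of other cell types moved in the same lungs. Of the erythroid list, 5 genes were found and *Hba-a1* was at 0 in all 6 lungs of the P2 *Vangl2* table. The other 4 had log2 fold changes below 0, and *Alas2*, the first enzyme of heme synthesis in red cells, was called lower (4662, 2146 and 2296 in the controls, 955, 1091 and 945 in the mutants, adjusted p = 0.0326). The summed level of the list was between 2689 and 5145 normalized counts in the controls and between 1126 and 1679 in the mutants. In the P2 *Ror2* table it was between 3466 and 5215 in the controls and between 1144 and 3681 in the mutants, with 0 of 4 called and a median log2 fold change of -1.57. Of 5 neutrophil markers, 4 were called higher in the P2 *Vangl2* mutants, where their sum was between 4664 and 8303 against between 1750 and 2694 in the controls, and 3 in the P5 *Vangl2* mutants, with sums between 5920 and 14433 against between 1937 and 2570 in the controls. In the P2 *Ror2* table their sum was 17706 in control 3, the control with the lowest share of replication genes, and between 2724 and 4880 in the other 5 lungs. Fibroblast markers summed to between 122108 and 136738 in the P2 *Vangl2* controls and between 86936 and 97342 in the mutants, with *Col1a1*, a collagen, called lower among 6 genes. Only 3 of these 6 had a log2 fold change below 0. Their median was -0.18 and their highest 0.39, so the sum does not describe each marker. *Hopx* of 6 alveolar type I markers and *Sftpa1* of 6 type II markers were called higher there, and *Myh11* of 6 myofibroblast and smooth muscle markers lower. Of the club, ciliated, endothelial, macrophage, lymphocyte and cartilage lists, 0 genes were called without a block, nor were any of these cell-type lists in either *Ror2* table. The part of these differences in the levels of the replication genes was not tested.

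At P5, airway markers stood higher in the mutants of both tables. For the 4 club cell markers the median log2 fold change was 1.65 (*Vangl2*) and 1.60 (*Ror2*), and in all 4 every mutant lay above every control measured in both tables. Their sum was between 55339 and 108572 normalized counts in the *Vangl2* controls and between 183865 and 244664 in the mutants. The 4 ciliated cell markers found had medians of 1.16 and 1.23, with 3 and 4 of them not overlapping. In the *Ror2* table every mutant lay above every control for 15.6% of all genes, and this share is not given for the *Vangl2* table. Of 6 endothelial markers, all were below 0 in the *Vangl2* mutants (median -0.55), and in 4 every mutant lay below every control (12.5% of all genes). With the replicate block in the P5 *Vangl2* table, limma called 4 of 4 club, 3 of 4 ciliated, 2 of 4 macrophage, 3 of 5 neutrophil, 1 of 6 type I and 1 of 6 type II markers higher. It called 1 of 6 endothelial, 1 of 6 fibroblast and 1 of 4 erythroid markers lower, and 0 of the lymphocyte, cartilage and smooth muscle lists. Over the whole table the blocked fit called 1558 of 17410 genes, 606 of them lower (3.48%). The part of these markers in the P5 levels of the replication genes was not tested either.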

How the data were processed

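Total RNA of the left lung lobe of single mice was sequenced on the Illumina HiSeq platform. The authors deposited 1 table per mutant and age, with a signal value per gene and lung that is the read count divided by a size factor of the lung. The submitters' processing notes name DESeq2 and mm10, while the aligner and the read counter are not given in the sources used here. The tables also hold the authors' own fold changes and p-values, which were not used. In all 24 lungs every value was a whole multiple of 1 step of that lung (within 0.02), from which reads were recovered.

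Groups followed the titles. Genes with at least 1 normalized count in at least 3 lungs were tested on log2(normalized count + 1) with limma 3.58.1 (R 4.3.3; empirical Bayes with a trend) in each table, two-sided, and adjusted p-values under 0.05 by the Benjamini-Hochberg method were called. With 3 lungs per group an exact permutation test cannot go below p = 0.1. The p-values measure the spread between these lungs. Differences between changes were interaction terms in fits of 12 lungs, for which the tables had been normalized separately. Count tests (edgeR 4.0.16 and DESeq2 1.42.0) were run on recovered reads, with genes on the chromosomes missing in control 1 of the P5 Ror2 table fitted on the other 5 lungs. The correlation of the deviations of same-numbered lungs was 0.384, 0.340 and 0.241 in the P5 Vangl2 table, where the numbers were taken to pair the lungs, and at or below 0.1 for at least 1 number in the other tables. The limma script was tested on simulated data. The 58 genes and 15 further lists of 194 genes were chosen with earlier results of these data known. All 58 were described, with lung values for those called and for a panel of 24, and examples of other lists were those with the lowest p. Sequences are from RefSeq.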

Additional observations from a re-analysis of the deposited data

How the results depend on the processing

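The median log2 fold change of the 58 genes stayed below 0 in the 4 comparisons under each alternative run, while counts of calls moved. Leaving out 1 lung gave between 1 and 2333 genes and between 0 and 54 of the 58 in the P2 *Vangl2* table, between 0 and 859 genes and between 0 and 24 of the 58 in the P2 *Ror2* table, between 0 and 54 genes and 0 of the 58 in the P5 *Vangl2* table, and between 0 and 901 genes and between 0 and 3 of the 58 in the P5 *Ror2* table. The medians then lay between -1.5 and -1.06, between -1.37 and -0.72, between -0.51 and -0.23 and between -0.53 and -0.20.

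Without a trend in the spread, limma called 1 gene and 0 of the 58 in the P2 *Vangl2* table, and 2, 4 and 11 genes in the P2 *Ror2*, P5 *Vangl2* and P5 *Ror2* tables. With the 12 lungs of an age in one fit it called 45 genes and 0 of the 58 (P2 *Vangl2*), 981 genes and 1 of the 58 (P5 *Vangl2*) and 3 genes (P5 *Ror2*). DESeq2 called 2001 genes in the P2 *Vangl2* table, 803 genes with 15 of the 58 in the P2 *Ror2* table, 1273 genes with 2 of the 58 in the P5 *Vangl2* table and 853 genes with 0 of the 58 in the P5 *Ror2* table. Rescaling lungs to the same total gave 193 genes in the P5 *Vangl2* table and 4 for the P5 difference between mutants. With control 1 kept for every gene, 1 gene was called in the P5 *Ror2* table, and *Mcm5* had a log2 fold change of 2.85, from values listed at 0 in that lung.

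With the replicate number as a block, 1558 genes and 2 of the 58 were called in the P5 *Vangl2* table, 795 genes and 50 of the 58 in the P2 *Vangl2* table, and 1 gene in each *Ror2* table. The block also turned the median of the P5 difference between mutants to 0.067. Numbers pair lungs only in the P5 *Vangl2* table by the check used. Other signs turned when single lungs of the *Vangl2* tables were left out, where log2 fold changes ran from -0.062 (without mutant 1) to 0.25 for *E2f2* at P2, from -0.15 (without mutant 3) to 0.44 for *E2f2* at P5, and from -0.85 to 0.15 (without mutant 1; 0.14 without mutant 2) for *Rmi2* at P5. The cause was not tested, beyond the fewer lungs in these fits. In the P5 *Vangl2* table *Rmi2* was also above 0 with edgeR (0.12) and DESeq2 (0.11).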
